A study of Mus musculus with 6 samples.

Results

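The aminoacyl-tRNA synthetases are the enzymes that load each amino acid onto its transfer RNA. Their genes were taken from the deposited count table by symbol: a one-letter amino acid code other than F followed by "ars", with or without a 1 or 2, together with Eprs, Farsa, Farsb and Tarsl2. This gave 37 of the 53819 symbols in the table, 20 counted as cytosolic and 17, with names ending in 2, as mitochondrial. The rule itself uses names only and no measured value, but it was set with earlier results of these data known. All 37 had enough reads to be tested. The name is an imperfect guide, because Tarsl2 ends in 2 but encodes a cytosolic threonyl-tRNA synthetase-like protein. Gars and Kars, counted as cytosolic, have products that serve both compartments. The pattern also leaves out Fars2, the mitochondrial phenylalanyl-tRNA synthetase. Most symbols are the older ones, so that Sars stands for the gene now called Sars1.

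The RNA came from 3D gastruloids grown from the mouse embryonic stem cell line E14. Gastruloids are aggregates that break symmetry and form a posterior pole when left to develop. One group of 3 libraries was untreated, and the aggregates of the other 3 had received budesonide, a synthetic glucocorticoid, for 80 h. Vehicle, time of collection and whether replicates were separate cultures are not stated, so the p-values below reflect the spread among these libraries, and that spread may be technical. All 6 libraries came from 1 cell line, with 5666168 to 7476862 counted reads each.

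Protein synthesis runs in parallel in the cytosol and in the mitochondrion. Most amino acids are served by a pair of nuclear synthetase genes, 1 for each compartment. Gars and Kars are exceptions whose products serve both compartments, Eprs joins the glutamyl and prolyl enzymes in a single chain, and Farsa and Farsb encode the subunits of the cytosolic phenylalanyl enzyme. Several cytosolic enzymes are held together in the multisynthetase complex. Many cytosolic synthetase genes are known targets of ATF4, a transcription factor whose translation increases when the initiation factor eIF2 is phosphorylated, for example during shortage of amino acids.

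The promoter sequences are shown first, with matches to a short element linked to ATF4, called the ATF4 element here. This and the other elements searched were chosen after the values were seen. Whether any of them bears on the changes in RNA was not tested. Windows from 250 bases before to 50 bases after a transcription start, from RefSeq on build GRCm38.p6 (the deposited counts used GRCm39), could be matched by symbol and gene position for 27 of the 37 genes, 13 cytosolic and 14 mitochondrial. The 8-letter core of the C/EBP-ATF response element, TGATGNAA with N for any base, was searched on both strands. It was present in 5 of 13 cytosolic genes (38.5%), in 0 of 14 mitochondrial genes, and in 2.95% of the 12018 tested genes with a window. The share was 3.97% of all 32841 windows of this length. A match is a description of the letters and not of a bound site. The stretches below run 5′ to 3′ along the gene's strand, and capitals mark the match on either strand. The first 5 lines are the genes with a match; Sars, Kars and Rars2 are shown for comparison as the gene with the highest rise, a gene that fell and the mitochondrial gene that rose, and their windows held no match.
Aars, chr8:111033702-111033781, plus strand: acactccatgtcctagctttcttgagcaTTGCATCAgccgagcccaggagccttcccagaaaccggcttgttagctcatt
Gars, chr6:55037921-55038000, plus strand: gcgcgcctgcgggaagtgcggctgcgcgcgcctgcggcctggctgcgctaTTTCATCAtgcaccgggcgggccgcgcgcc
Tars, chr15:11399659-11399738, minus strand: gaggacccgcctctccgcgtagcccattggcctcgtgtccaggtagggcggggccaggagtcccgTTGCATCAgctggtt
Iars, chr13:49682065-49682144, plus strand: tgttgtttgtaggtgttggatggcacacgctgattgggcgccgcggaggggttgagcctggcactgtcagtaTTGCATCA
Yars, chr4:129189838-129189913, plus strand: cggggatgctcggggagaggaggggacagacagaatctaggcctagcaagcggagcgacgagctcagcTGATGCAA
Sars, chr3:108445260-108445339, minus strand: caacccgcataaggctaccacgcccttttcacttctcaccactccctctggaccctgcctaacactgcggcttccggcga
Kars, chr8:112011355-112011434, minus strand: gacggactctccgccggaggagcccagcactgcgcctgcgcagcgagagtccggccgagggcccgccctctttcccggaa
Rars2, chr4:34614877-34614956, plus strand: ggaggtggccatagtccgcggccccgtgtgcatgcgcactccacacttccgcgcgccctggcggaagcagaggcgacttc

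In Aars the match began 112 bases before the transcription start, in Gars 30 and in Tars 15 bases before it, and in Iars and Yars 7 and 3 bases after the first transcribed base. The Aars window held a further match beginning 9 bases after the start. All 5 genes with a match rose with budesonide, as given below. Of the other 8 cytosolic genes with a window 6 rose, Kars fell and Farsa did not pass the test. The cytosolic genes not matched were Cars, Hars, Lars, Nars, Rars, Vars and Wars. Of other elements searched, the E-box CACGTG was in 4 of 13 cytosolic genes and 1 of 14 mitochondrial genes, against 11.2% of tested genes. The NRF1 element GCGCANGC gave 5 of 13 and 5 of 14 against 20.2%, the GABP core CCGGAAG 5 of 13 and 4 of 14 against 17.7%, and the YY1 core AAGATGGC 1 of 13 and 3 of 14 against 4.78%. Among 42 matches in these windows 0 pairs of different elements shared bases.

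With budesonide 14 of 20 cytosolic synthetase genes rose, 2 fell and 4 did not pass. A gene passed at an adjusted p under 0.05 in the quasi-likelihood test of edgeR, with Benjamini-Hochberg adjustment over all 17155 genes tested. Of 17 mitochondrial genes 1 rose, 0 fell and 16 did not pass. The median log2 fold change was 0.30 over the cytosolic and -0.02 over the mitochondrial genes, against -0.02 over all tested genes. Among all tested genes 15.2% rose and 13.5% fell. The background depends on read depth: where the mean was 50 CPM or more (read counts scaled to library size, with TMM factors for library composition), which holds for all 20 cytosolic genes, 30.7% rose and 18.4% fell. Among genes of 10 to 50 CPM, which hold 14 of the 17 mitochondrial genes, 19.9% rose and 16.3% fell. The median log2 fold change was 0.05 in the first of these classes and 0.04 in the second. Of all changed genes 52.9% were higher. This share moved with the scaling, to 38.6% with library totals alone, 43.1% by upper quartiles, 60.3% in DESeq2 and 65.4% with an offset for GC content and transcript length.

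**Figure D1:**
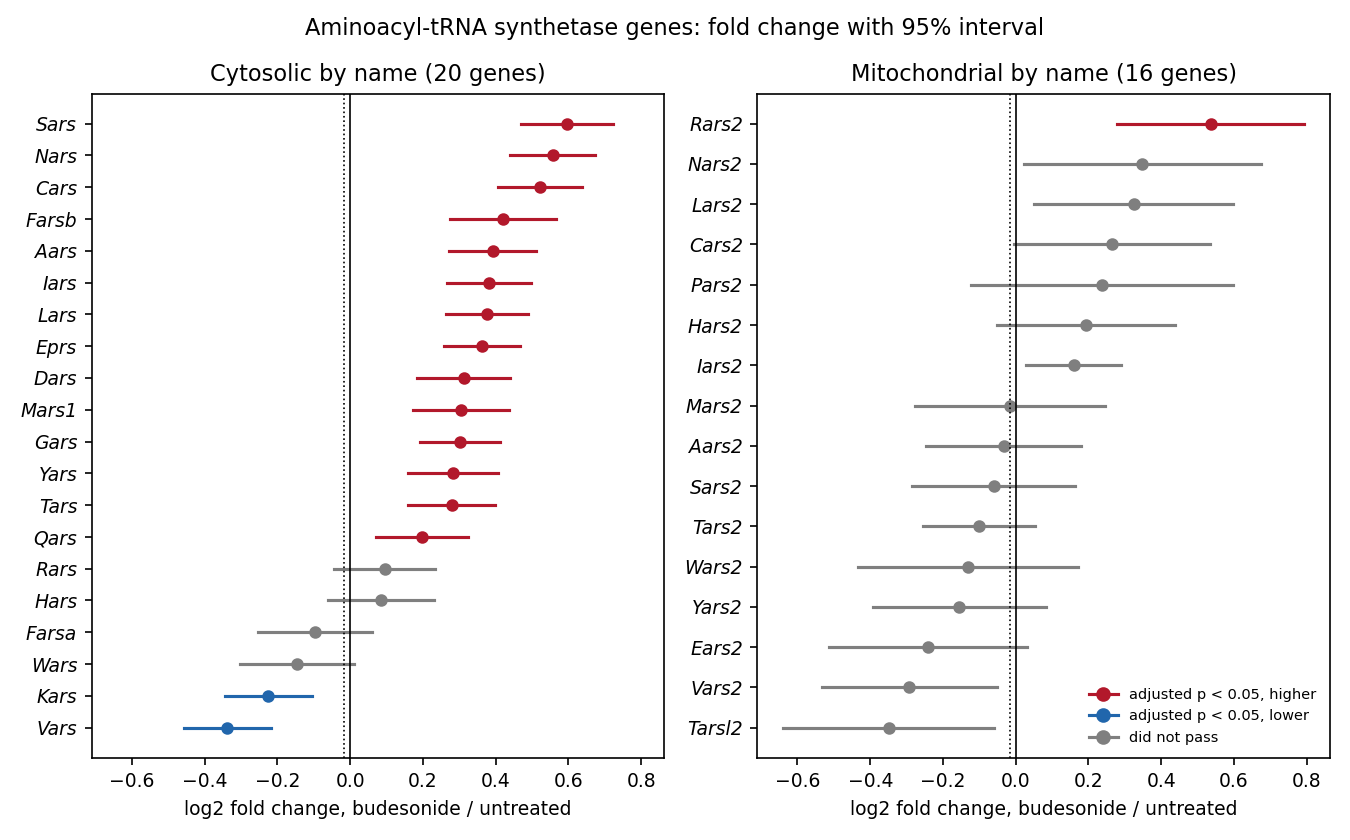
Log2 fold change of budesonide over untreated (x axis) for single synthetase genes (y axis), with its 95% interval, for the 20 genes counted as cytosolic and 16 of the 17 counted as mitochondrial by name; red and blue passed the test, grey did not, and the dotted line is the median of all tested genes. The cytosolic genes span -0.34 to 0.60 with 14 in red, and the mitochondrial genes span -0.35 to 0.54 with 1 in red.

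The precision differed between the classes. Cytosolic genes had 380 to 7365 reads per library and standard errors of 0.05 to 0.08, and mitochondrial genes 53 to 1634 reads and standard errors of 0.06 to 0.18. A change of the size of the cytosolic median could therefore be missed for single mitochondrial genes. For 10 of the 17 mitochondrial genes the 95% interval of the log2 fold change lay wholly below the cytosolic median of 0.30, and for the other 7 it held that value. At an unadjusted p under 0.05 there were 4 mitochondrial genes higher and 2 lower, and DESeq2 called 1 higher and 0 lower. The difference between the classes is a description and was given no test of its own.

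The groups also differed in markers of cell type, and all values are from bulk RNA, in which fewer cells of a type and less RNA per cell cannot be told apart. The 7 pluripotent cell markers were all detected, with a summed level of 1292 to 1344 CPM without and 1837 to 2032 CPM with budesonide, 5 higher and 0 lower. The streak and tailbud markers summed to 253 to 270.4 CPM without and 8.59 to 12.3 CPM with budesonide, 5 of 5 tested lower. Endoderm markers summed to 12.6 to 19.7 and 4.23 to 5.89 CPM, with 1 of 4 tested lower. Fibroblast markers summed to 17.0 to 19.2 and 10.7 to 11.8 CPM, with 2 of 5 tested lower, and neuron markers to 22.5 to 24.2 and 27.9 to 31.6 CPM, with 2 of 4 higher and 2 lower. The fibroblast markers past the test, Thy1 and Col1a2, were low, at 3.94 and 6.53 CPM without budesonide. DESeq2 called 0 fibroblast markers, and 2 neuron markers higher and 1 lower. Its counts for the other marker lists were the same. Over all tested genes 15.2% rose and 13.5% fell in edgeR. The untested markers were Wnt3a, Sox7, Lum and Dcn, of which Sox7 was at 0 reads in budesonide replicates 1 and 3. The part of these differences in the change of the synthetase genes was not tested.

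The same contrast is given here by library. The median over the 20 cytosolic genes, on the log2 scale relative to each gene's mean in untreated samples, was 0.00, 0.00 and 0.01 in the untreated and 0.34, 0.26 and 0.30 in the budesonide libraries. The groups did not overlap. For the 17 mitochondrial genes it was -0.01, 0.01 and -0.01 without and 0.12, -0.09 and 0.03 with budesonide, and the untreated values lay between the budesonide ones. This scale centres each gene on its untreated mean, which holds the untreated medians near 0. The medians therefore restate the fold changes above and add no separate evidence. Summed over the genes, the cytosolic class held 4273, 4275 and 4317 CPM without and 5357, 5143 and 5253 CPM with budesonide. The mitochondrial sum was 603, 627 and 644 CPM without and 724, 629 and 677 CPM with it. Of this, Lars2 alone held a mean of 164 of 625 CPM in the untreated and 205 of 677 CPM in the budesonide libraries. Only the cytosolic sums were separated. Single genes were separated in the same way: all budesonide libraries lay above all untreated ones for 15 of 20 cytosolic and 4 of 17 mitochondrial genes, and below for 2 and 3. Over all tested genes the shares were 19.8% above and 19.8% below. They were 36% and 23% for genes of at least 50 CPM and 25.7% and 20.8% for genes of 10 to 50 CPM.

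**Figure D2:**
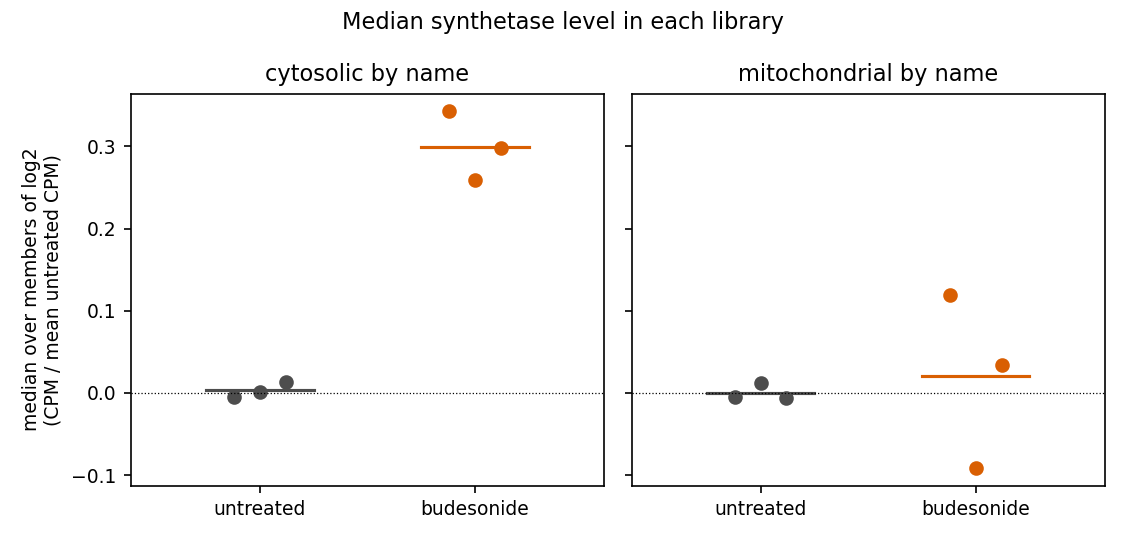
Median over the members of each class of the log2 ratio of a gene's CPM to its mean in untreated libraries (y axis), 1 point per library and a bar at the group mean, for untreated and budesonide samples (x axis). The cytosolic medians with budesonide lie between 0.26 and 0.34, above all untreated values, and the mitochondrial ones between -0.09 and 0.12, on both sides of the untreated values.

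Seryl-tRNA synthetase, Sars, was the member with the largest fold change. Its level was 156, 149 and 156 CPM in the untreated and 249, 234 and 212 CPM in the budesonide libraries. The groups did not overlap, and the log2 fold change was 0.60 ± 0.06 (SE), adjusted p = 1.02e-10, or 1.51-fold. The asparaginyl enzyme gene Nars was at 229, 238 and 258 CPM in the untreated and 355, 356 and 355 CPM in the budesonide libraries. The 3 budesonide libraries were nearly equal and all higher, with a log2 fold change of 0.56 ± 0.06 (SE), adjusted p = 6.87e-11. The cysteinyl enzyme gene Cars was at 198, 208 and 205 CPM in the untreated and 294, 285 and 300.04 CPM in the budesonide libraries, again without overlap (0.52 ± 0.06 (SE) on the log2 scale, adjusted p = 3.32e-10).

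The alanyl and isoleucyl enzyme genes rose by about the same factor. Aars was at 388, 352 and 345 CPM in the untreated and 469.7, 441 and 513 CPM in the budesonide libraries, and its log2 fold change was 0.39 ± 0.06 (SE), adjusted p = 6.44e-07. Aars has the ATF4 element printed above and shares 20.7% of its exon bases in the GENCODE M21 models with Exosc6 on the same strand, so reads there could be lost or shared. Iars, a member of the multisynthetase complex, was at 249, 272 and 279.7 CPM in the untreated and 357, 341 and 345 CPM in the budesonide libraries. The highest untreated Iars value lay well below the lowest with budesonide, and the log2 fold change was 0.38 ± 0.06 (SE), adjusted p = 5.86e-07.

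The subunits of the cytosolic phenylalanyl enzyme, which assemble in equal number, are encoded by separate genes with different values here. Farsb, the beta subunit, was at 66.6, 68.3 and 65.2 CPM in the untreated and 93.0, 89.2 and 85.5 CPM in the budesonide libraries, a log2 fold change of 0.42 ± 0.07 (SE), adjusted p = 7.27e-06. Farsa, the alpha subunit, was at 66.0, 69.9 and 73.1 CPM in the untreated and 60.2, 65.9 and 69.9 CPM in the budesonide libraries, with overlapping groups and a difference of -0.10 ± 0.08 (SE) on the log2 scale that missed the threshold (adjusted p = 0.394). The ratio of Farsb to Farsa CPM was 1.01, 0.978 and 0.892 without and 1.55, 1.35 and 1.22 with budesonide, higher in every treated library. The ratio is given as a description, with no test. Farsb shares 10.8% of its exon bases with Sgpp2 on the opposite strand in those models.

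**Figure D3:**
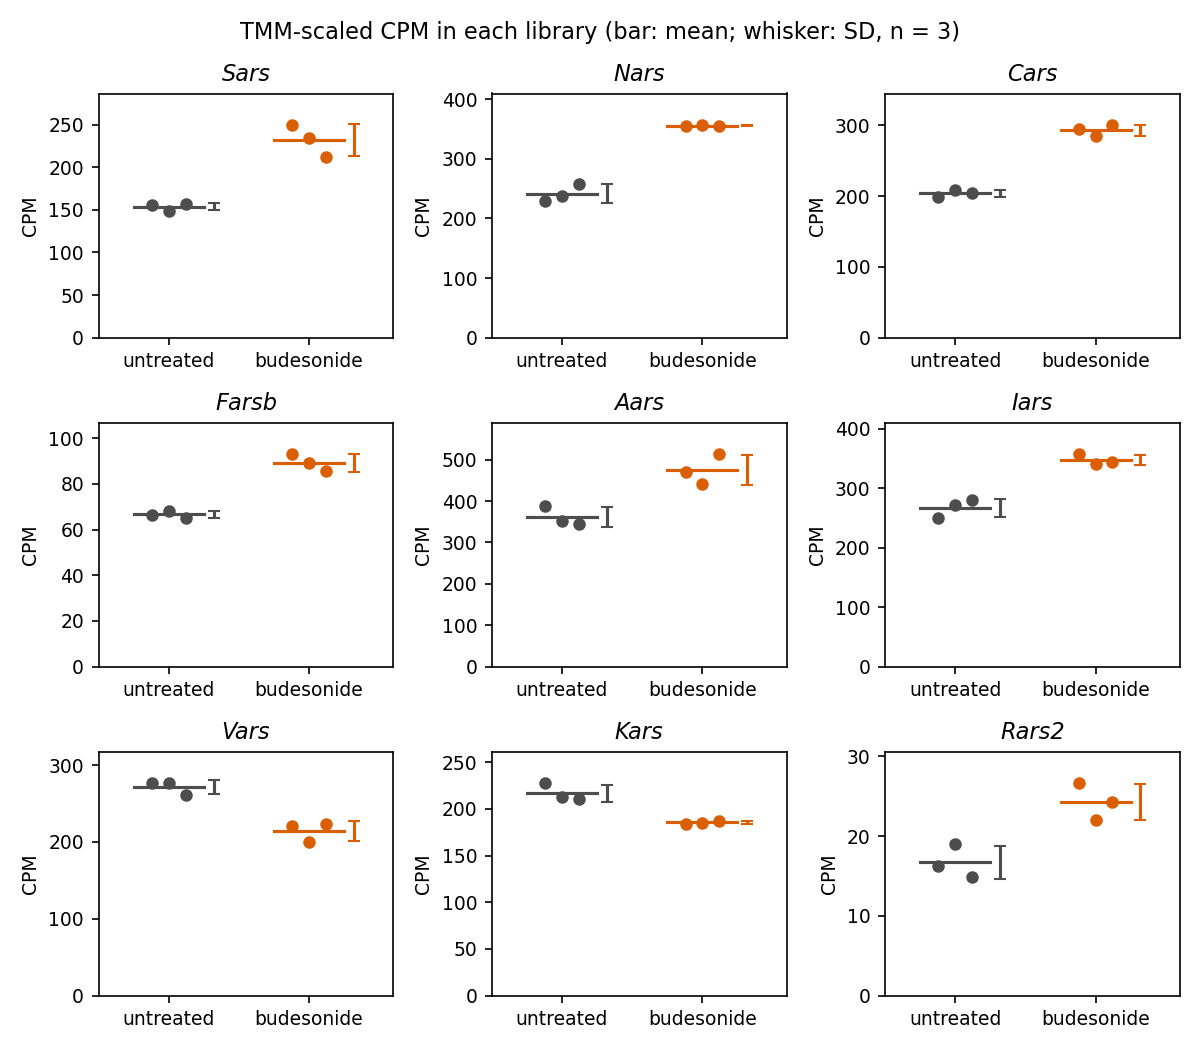
TMM-scaled CPM (y axis, from 0) in each untreated and budesonide library (x axis, 3 points per group) for the 6 cytosolic genes with the largest rises, the 2 cytosolic genes that fell and the mitochondrial gene that rose; bars are means and whiskers SD, n = 3. In each of the 9 panels the groups are separated, upward in all but Vars and Kars.

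The other 8 cytosolic genes that rose did so by log2 fold changes of 0.20 to 0.38. Eprs, the bifunctional glutamyl-prolyl enzyme, was at 759, 808 and 822 CPM in the untreated and 1038, 1019.7 and 1015 CPM in the budesonide libraries, 0.36 ± 0.05 (SE) on the log2 scale (adjusted p = 2.26e-07). Lars (leucyl), Dars (aspartyl) and Gars (glycyl) rose by 0.38 ± 0.06 (SE), 0.31 ± 0.06 (SE) and 0.30 ± 0.05 (SE). All budesonide libraries were above all untreated ones for each of these 4 genes. Mars1, the methionyl enzyme gene, went from 105 ± 2.76 to 129.8 ± 6.54 CPM (mean ± SD, n = 3). It overlaps Ddit3 on the opposite strand over 2.29% of its exon bases, and Ddit3 itself rose from 13.2 ± 0.497 to 29.1 ± 1.20 CPM. Yars (tyrosyl) and Tars (threonyl), both with the ATF4 element, rose by 0.28 ± 0.06 (SE) and 0.28 ± 0.06 (SE). The smallest rise was that of Qars, the glutaminyl enzyme gene, at 0.20 ± 0.06 (SE) (adjusted p = 0.0139). By edgeR the Qars call was lost under upper quartiles (adjusted p = 0.0572), under library totals alone (0.132), with all low genes kept (0.109) and without budesonide replicate 1 (0.179).

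Both cytosolic genes that fell did so in all libraries. Vars, which encodes the valyl enzyme, was at 276, 276 and 261 CPM in the untreated and 221, 199.7 and 223 CPM in the budesonide libraries, a log2 fold change of -0.34 ± 0.06 (SE), adjusted p = 1.14e-05. With an offset for GC content and transcript length its log2 fold change was -0.13 and it did not pass (edgeR adjusted p = 0.108). Kars, the lysyl enzyme gene that serves the cytosol and the mitochondrion, was at 227, 212 and 211 CPM in the untreated and 184, 185 and 187 CPM in the budesonide libraries. Its budesonide values were almost identical and all below the untreated ones (-0.22 ± 0.06 (SE) on the log2 scale, adjusted p = 0.00257). Gars, the other gene serving both compartments, rose.

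The 4 cytosolic genes that did not pass were Wars (tryptophanyl), Farsa, Hars (histidyl) and Rars (arginyl), with log2 fold changes of -0.15, -0.10, 0.09 and 0.09. Their 95% intervals were -0.30 to 0.01, -0.25 to 0.06, -0.06 to 0.23 and -0.04 to 0.23, all below the cytosolic median. Wars was at 74.5, 73.0 and 69.6 CPM in the untreated and 64.9, 59.9 and 72.1 CPM in the budesonide libraries, with overlapping groups. It passed as lower with upper quartile scaling (edgeR adjusted p = 0.0385) and without scaling factors (0.0199). Hars was at 74.1, 74.7 and 75.7 CPM in the untreated and 84.4, 77.1 and 76.3 CPM in the budesonide libraries, separated but close, and it shares 9.8% of its exon bases with Hars2 on the opposite strand.

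Genes that rose were found inside and outside the multisynthetase complex and in both structural classes of synthetase. Of the 8 complex-bound enzymes 6 rose and 1, Kars, fell (median log2 fold change 0.31). Of the 12 cytosolic genes outside the complex 8 rose and 1, Vars, fell (median 0.29). Class I and class II synthetases differ in the fold of their catalytic domain. Of 9 cytosolic class I genes 6 rose and 1 fell (median 0.28), and of 10 class II genes 7 rose and 1 fell (median 0.31), with Eprs, which carries a domain of each class, left out. Among all tested genes of 50 CPM or more, the range of all these genes, 30.7% rose and 18.4% fell.

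Rars2, the mitochondrial arginyl-tRNA synthetase, was the mitochondrial gene that rose. It was at 16.3, 19.0 and 14.9 CPM in the untreated and 26.6, 22.1 and 24.3 CPM in the budesonide libraries. Even the lowest treated value exceeded the highest untreated one, and the log2 fold change was 0.54 ± 0.13 (SE), adjusted p = 0.00087. It passed in all 15 alternative settings, with an adjusted p of at most 0.0153. The cytosolic partner Rars was at 88.9, 87.5 and 92.4 CPM in the untreated and 97.2, 99.9 and 89.2 CPM in the budesonide libraries and overlapped between groups.

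Lars2, the mitochondrial leucyl enzyme gene, was less settled and is named because its call depended on the setting. It was at 142, 161 and 188 CPM in the untreated and 230.2, 177 and 207 CPM in the budesonide libraries, with the widest spread of the genes above 50 CPM among the mitochondrial members and a slight overlap between groups. The difference, 0.32 ± 0.12 (SE) on the log2 scale, missed the threshold (adjusted p = 0.0791). It passed as higher in 7 of 15 alternatives, with adjusted p-values from 0.000114 to 0.313 over all of them. Leaving out 1 library was enough for that call in 3 cases, untreated replicate 3 (edgeR adjusted p = 0.000114), budesonide replicate 2 (0.000789) and untreated replicate 1 (0.0424). Iars2, the isoleucyl gene, was at 115, 116 and 115 CPM in the untreated and 136, 122 and 129 CPM in the budesonide libraries, all treated values higher, but did not pass (0.16 ± 0.06 (SE), adjusted p = 0.0586). In edgeR its adjusted p was 0.0498 with RLE size factors, 0.00516 with the offset for GC and length, and 0.0163 when budesonide replicate 2 was left out. Iars2 shares 30.1% of its exon bases in the GENCODE M21 models with Rab3gap2 on the opposite strand, and Rab3gap2 rose by 0.40 ± 0.07 (SE).

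The lowest fold changes among the genes counted as mitochondrial were those of Tarsl2, a cytosolic protein's gene by function, at -0.35 ± 0.14 (SE) (adjusted p = 0.0641), and Vars2, the valyl enzyme gene, at -0.29 ± 0.12 (SE) (adjusted p = 0.0616). Tarsl2 was at 15.2, 19.5 and 18.1 CPM in the untreated and 14.8, 15.2 and 11.2 CPM in the budesonide libraries. Vars2 was at 24.9997, 24.3 and 30.3 CPM in the untreated and 24.1, 20.01 and 20.6 CPM in the budesonide libraries. Neither passed, although the groups were separated for both, by a narrow margin, and both passed as lower with upper quartile scaling (edgeR adjusted p = 0.0305 and 0.0220) and without scaling factors (0.0208 and 0.0137). Tarsl2 also passed without untreated replicate 1 (0.0292), and Vars2 without budesonide replicate 1 (0.0381). Counting Tarsl2 with the cytosolic genes gave 14 higher and 2 lower of 21, and leaving it out of the mitochondrial class or adding Fars2 to that class left 1 higher and 0 lower. Fars2 was at 14.6, 14.3 and 17.0 CPM in the untreated and 13.4, 14.9 and 13.2 CPM in the budesonide libraries (-0.14 ± 0.14 (SE), adjusted p = 0.513).

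The remaining 12 mitochondrial genes lay between -0.24 (Ears2, glutamyl) and 0.35 (Nars2, asparaginyl) on the log2 fold change scale. None of them passed (edgeR adjusted p from 0.104 to 0.950), though Nars2 passed as higher without untreated replicate 3 (0.0310) and Cars2 with the GC and length offset (0.0355). Nars2 was at 8.08, 12.5 and 14.0 CPM in the untreated and 15.4, 14.3 and 14.3 CPM in the budesonide libraries, where untreated replicate 1 rests on 53 reads. Pars2, the prolyl enzyme gene, was at 11.1, 8.86 and 8.48 CPM in the untreated and 10.8, 8.83 and 14.3 CPM in the budesonide libraries and had the largest standard error, 0.18. Closest to no change were Mars2 (methionyl) at -0.02 ± 0.13 (SE) and Aars2 (alanyl) at -0.03 ± 0.11 (SE).

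The partners for the same amino acid were also compared directly. There were 14 one-to-one pairs, and the cytosolic log2 fold change was above the mitochondrial one in 10 of them, with a median difference of 0.23. The cytosolic gene rose and its partner did not pass in 10 pairs, the reverse held for Rars and Rars2, neither passed for Hars and Wars, and Vars fell without Vars2 passing. The cytosolic-to-mitochondrial ratio was higher in all budesonide than in all untreated libraries for 7 pairs, lower for 1 and overlapping for 6. These ratios are given as a description, with no test. No share was computed for ratios of other gene pairs. Of single genes of at least 50 CPM, 36% lay above and 23% below in all budesonide libraries. For genes of 10 to 50 CPM the shares were 25.7% and 20.8%.

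In 5 of the 14 pairs the partners had opposite signs with the cytosolic gene past the test. This count rests on mitochondrial values near 0, and it was 2 without untreated replicate 1 or with the GC and length offset, 3 without budesonide replicate 2, and 4 to 6 in the other alternatives. The pairs of Tars and Yars were of opposite sign in all of these settings. The widest gap was that of Sars and Sars2: Sars2 was at 30.9, 29.1 and 24.5 CPM in the untreated and 25.4, 27.2 and 28.9 CPM in the budesonide libraries, and the log2 ratio of Sars to Sars2 was 2.33, 2.35 and 2.67 in the untreated and 3.30, 3.11 and 2.88 in the budesonide libraries. Yars2 was at 22.9, 25.7 and 22.6 CPM in the untreated and 20.01, 21.9 and 22.2 CPM in the budesonide libraries, and the log2 ratio of Yars to Yars2 was 2.59, 2.41 and 2.57 in the untreated and 3.07, 2.95 and 2.84 in the budesonide libraries. In both pairs every treated ratio lay above every untreated one. For Aars and Aars2 the log2 ratio was 3.41, 3.46 and 3.52 in the untreated and 3.77, 3.96 and 3.94 in the budesonide libraries, with Aars2 at 36.4, 31.9 and 30.01 CPM in the untreated and 34.4, 28.4 and 33.5 CPM in the budesonide libraries. For Tars and Tars2 it was 1.74, 1.65 and 1.56 in the untreated and 2.04, 2.11 and 1.95 in the budesonide libraries, with Tars2 at 71.8, 70.6 and 71.6 CPM in the untreated and 68.5, 60.5 and 71.1 CPM in the budesonide libraries. The methionyl pair differed least of the 5, with a log2 ratio of Mars1 to Mars2 of 2.48, 2.48 and 2.67 in the untreated and 2.69, 2.89 and 3.02 in the budesonide libraries and Mars2 at 18.7, 18.4 and 17.0 CPM in the untreated and 19.6, 16.9 and 16.9 CPM in the budesonide libraries. Eprs, which has no single partner, also differed in sign from Ears2, at 19.1, 19.5 and 16.3 CPM in the untreated and 15.6, 16.9 and 13.8 CPM in the budesonide libraries, and the log2 ratio of Eprs to Ears2 was 5.32, 5.37 and 5.65 in the untreated and 6.05, 5.91 and 6.20 in the budesonide libraries.

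The arginyl pair went the other way. The log2 ratio of Rars to Rars2 was 2.45, 2.20 and 2.63 in the untreated and 1.87, 2.18 and 1.88 in the budesonide libraries, lower in every treated library. The valyl and tryptophanyl pairs kept their ratio most closely: the difference of log2 fold changes was -0.05 for Vars and Vars2 and -0.02 for Wars and Wars2, with negative log2 fold changes for all 4 genes, of which only Vars passed.

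**Figure D4:**
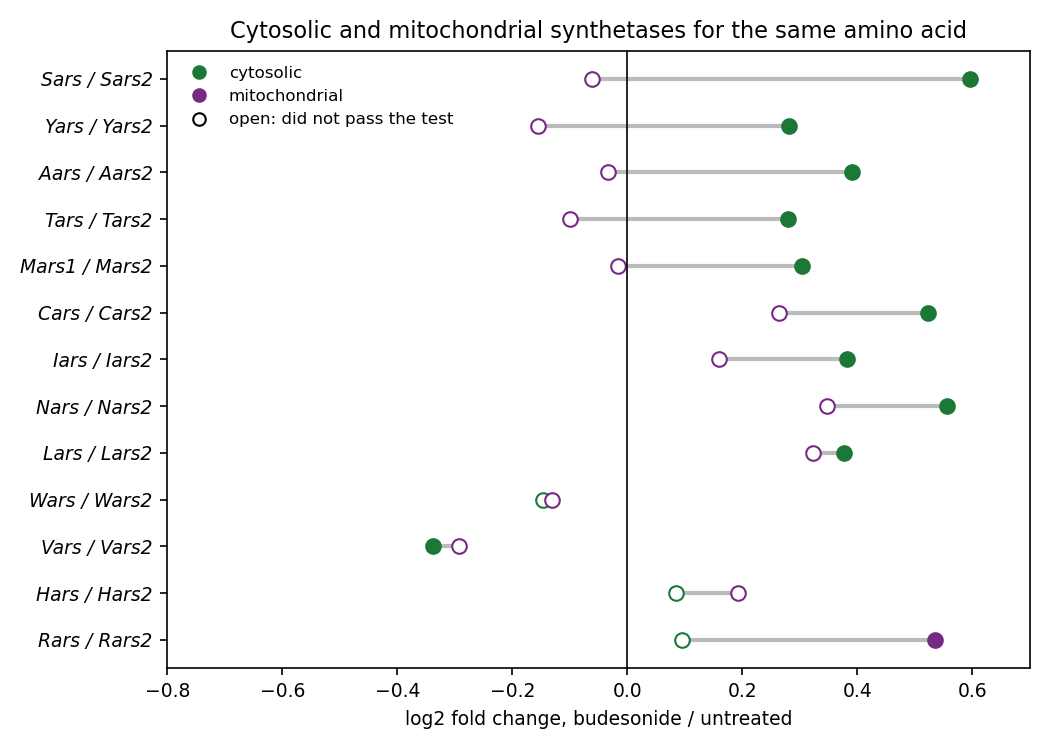
Log2 fold change of budesonide over untreated (x axis) for the cytosolic (green) and mitochondrial (purple) gene of 13 of the 14 amino acids with a pair (y axis), ordered by their difference; filled circles passed the test. Green lies to the right of purple in 9 of these pairs, from Sars and Sars2 at the top to Lars and Lars2, and to the left in 4.

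Levels between genes were compared as CPM per kilobase of the longest protein-coding transcript in GENCODE M21. In untreated libraries the cytosolic genes ranged from 25.6 (Wars) to 169 (Gars) CPM per kb with a median of 57.2, and the mitochondrial genes from 1.598 (Mars2) to 42.0 (Lars2) with a median of 8.46. The cytosolic gene was the higher of the pair for all 14 amino acids. With budesonide the medians were 66.4 and 7.55 CPM per kb. The mitochondrial median was the value of Yars2 without and of Ears2 with budesonide, so it does not follow a single gene. The median log2 fold change of that class was -0.02. The upper end of the cytosolic order was held by Gars and Eprs, at 169 and 162 without and 208 and 209 CPM per kb with budesonide. Kars came next without budesonide, at 99.0, and Nars with it, at 129.

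The steps beside the synthetases are given as counts, without a test of any list. For the lists here and below the background is that given above: 15.2% of all tested genes rose and 13.5% fell. At 50 CPM or more 30.7% rose and 18.4% fell, and at 10 to 50 CPM 19.9% and 16.3%. Some counts lie near these shares, such as the 2 of 14 tRNA maturation and export genes that fell. Of the 3 scaffold proteins of the multisynthetase complex, Aimp1, Aimp2 and Eef1e1, none rose and Aimp2 fell. Aimp2 was at 31.6, 27.6 and 26.4 CPM in the untreated and 21.8, 18.8 and 25.0031 CPM in the budesonide libraries (-0.39 ± 0.12 (SE), adjusted p = 0.00949). DESeq2 called none of the 3, and at an unadjusted p under 0.05 edgeR had 0 higher and 1 lower. The 4 genes of mitochondrial glutaminyl- and formylmethionyl-tRNA formation (Qrsl1, Gatb, Gatc, Mtfmt) and the 4 of selenocysteine charging and use (Pstk, Sepsecs, Secisbp2, Eefsec) gave 0 calls by edgeR and DESeq2, and 0 at an unadjusted p under 0.05. Their median log2 fold changes were 0.13 and 0.16.

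Of 14 tRNA maturation and export genes 0 rose and 2 fell (median log2 fold change 0.01), with 1 higher and 3 lower at an unadjusted p under 0.05 in edgeR and 0 and 2 in DESeq2. Tsen34, a subunit of the tRNA splicing endonuclease, fell by 0.36 ± 0.09 (SE) on the log2 scale, and Ssb, the La protein that binds new tRNA transcripts, went from 230.5 ± 31.6 to 189 ± 13.9 CPM. The 7 editing and peptidyl-tRNA hydrolase genes gave 0 calls by edgeR and DESeq2, with 1 higher and 1 lower at an unadjusted p under 0.05 (median -0.04). Of 6 cytosolic elongation factor genes 2 rose and 1 fell (median 0.02). Eef1a1, which brings charged tRNA to the ribosome, was at 4300.2, 4745 and 4893 CPM in the untreated and 6068, 6318 and 5757 CPM in the budesonide libraries (0.38 ± 0.05 (SE), adjusted p = 1.02e-07). Eef1b2, a subunit of its exchange factor, also rose (0.28 ± 0.05 (SE)) while the subunit gene Eef1d fell (-0.31 ± 0.06 (SE)). Of 9 mitochondrial translation factor genes Gfm1, an elongation factor, rose (0.22 ± 0.07 (SE)) and Tufm, the mitochondrial counterpart of Eef1a1, fell (-0.21 ± 0.08 (SE)), with a median of 0.00 and 0 calls in DESeq2.

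The companion list with the most calls was that of ATF4 and its targets outside the synthetases, a list chosen with earlier results of these data known. Over all tested genes 15.2% rose and 13.5% fell. Of 27 genes 21 rose and 0 fell (median log2 fold change 0.43), with 23 higher and 0 lower at an unadjusted p under 0.05 in edgeR, and 20 and 0 in DESeq2. Asns, asparagine synthetase, was at 89.0, 97.9 and 94.4 CPM in the untreated and 196, 184 and 186 CPM in the budesonide libraries (1.01 ± 0.06 (SE), adjusted p = 1.71e-17), and Slc3a2, the heavy chain of several amino acid transporters, rose by 0.70 ± 0.06 (SE). Atf4 itself, named after its value was seen, rose by 0.42 ± 0.06 (SE) (adjusted p = 2.71e-07). Among 10 genes of eIF2 phosphorylation and mTOR signalling (the eIF2 kinases, the GCN2 activator Gcn1, the eIF2 alpha gene Eif2s1, the eIF2 phosphatase subunits, Mtor and Rptor) 4 rose and 0 fell (median 0.15), with 5 and 0 at an unadjusted p under 0.05 and 3 and 0 in DESeq2. Ppp1r15a, the stress-induced phosphatase subunit also known as Gadd34, was at 52.0, 67.2 and 60.0 CPM in the untreated and 82.7, 73.7 and 84.8 CPM in the budesonide libraries, and Eif2ak3, the kinase PERK, rose by 0.45 ± 0.10 (SE). Eif2ak4, the kinase GCN2 that binds uncharged tRNA, was at -0.15 ± 0.09 (SE) and did not pass (adjusted p = 0.189).

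**Figure D5:**
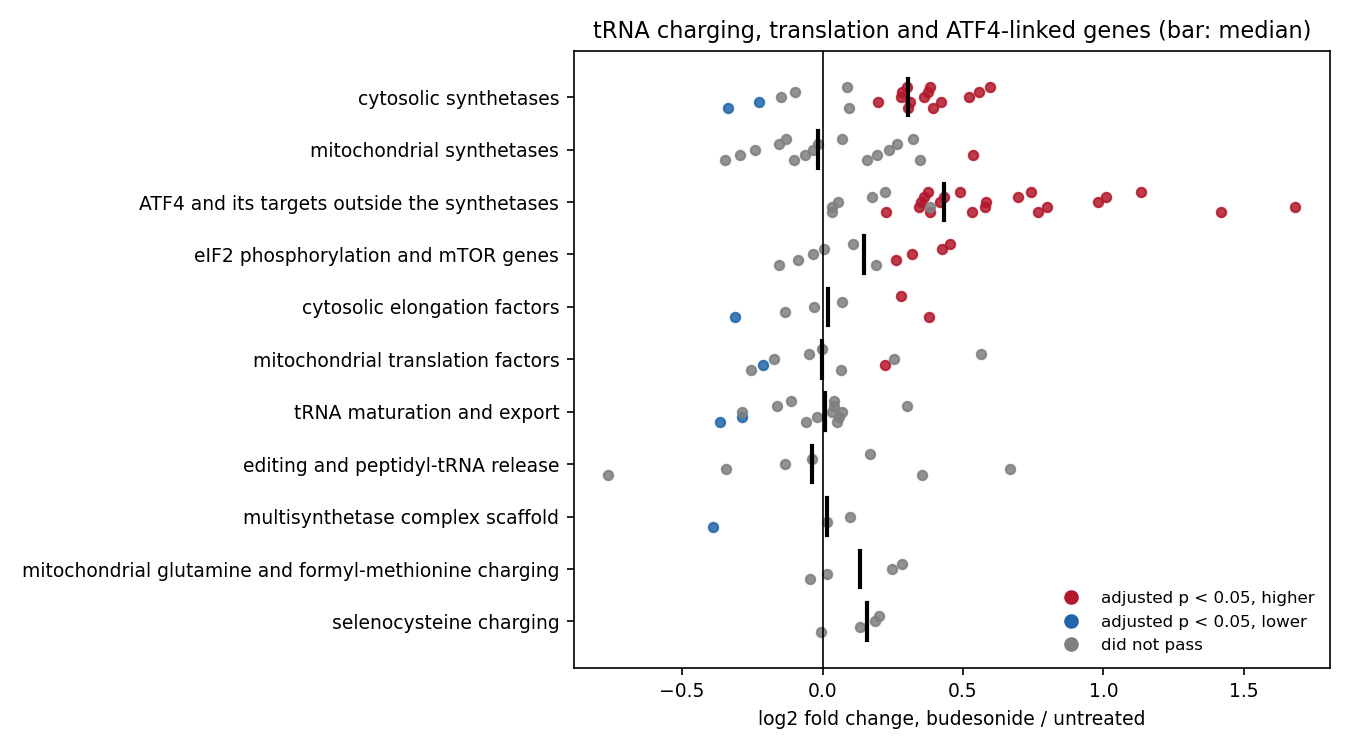
Log2 fold change of budesonide over untreated (x axis) for each tested gene of the synthetase classes and 9 companion lists (y axis); colour shows the test result and the black bar the median. The cytosolic synthetases and the ATF4 list have medians of 0.30 and 0.43, and the medians of the other lists lie between -0.04 and 0.16.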

How the data were processed

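Stranded mRNA libraries of 3 untreated and 3 budesonide-treated E14 gastruloid samples were made with a TruSeq kit, per the labels' protocols. Build GRCm39 is named in the submitters' processing notes, as are the tools STAR 2.7.5c, featureCounts 2.0, cutadapt 2.5, bcl2fastq and DESeq2. For the annotation version and the strand setting nothing is given in the sources used here, so reads of overlapping genes cannot be told apart; in GENCODE M21 models (GRCm38) 13 of 37 members share exon bases with another gene, 9 of them with a protein-coding one. The authors deposited raw counts per symbol and a normalized signal for 33560 genes, which equalled the counts after division by a single factor for each library, with a tolerance of 0.05 reads.

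Groups came from the sample titles. Libraries of a group differed by 1.43 to 3.14 in chi-square per gene (1 is sampling noise), so by more than sampling noise alone. This cannot tell separate cultures from repeat preparations of the same sample. A promoter window was used only where its start lay within 5000 bases of the gene on the same strand in M21. In a library 3 reads correspond to 0.422 to 0.552 CPM. Raw counts were tested with edgeR 4.0.16 in R 4.3.3: filterByExpr (minimum count 10, minimum total 15), TMM, a robust quasi-likelihood fit on group alone, and adjustment by Benjamini-Hochberg over all tested genes at 0.05. Standard errors were derived from the F statistic, and 95% intervals are for single genes. Alternatives were DESeq2 1.42.0, limma 3.58.1 on log2 of the deposited normalized signal plus 1, other scalings and filters, the replicate block, each library left out, and GC and length offsets (models for 98.7% of tested genes). The test was also tested on simulated data, but the outcome is not given here and no result rests on it.

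Members, companion lists and naming rule were chosen with earlier results of these data known, and the promoter motifs and the split of the background at 10 and 50 CPM after the values were seen. Values per library are given for mitochondrial genes past the test, for up to 6 risen and up to 6 fallen cytosolic genes past the test with the largest changes (only 2 fell) and for pairs of opposite sign; other genes given so were chosen after their values were seen. From each companion list up to 2 risen and 2 fallen genes with the smallest adjusted p are named. One mitochondrial member enters the counts and medians but is not reported here by itself.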

Additional observations from a re-analysis of the deposited data

How the results depend on the processing

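Of the 16 cytosolic genes past the test, 14 kept direction and call in all 15 alternatives; Qars and Vars were the exceptions, with the values given above. The cytosolic count was 13 or 14 higher in every alternative. The count lower was 1 instead of 2 with the GC and length offset and when the genes serving both compartments were left out. It was 3 with upper quartile scaling and with library totals alone, where Wars also passed as lower. The cytosolic median log2 fold change of 0.30 was 0.25 with upper quartile scaling, 0.22 with library totals alone, 0.28 with all low genes kept and 0.35 with the GC and length offset, and 0.27 to 0.34 with a library left out. The median of all tested genes was -0.07, -0.10, -0.04 and 0.05 in the same 4 settings, against -0.02. Of the mitochondrial genes 2 instead of 1 were higher with RLE size factors, with all low genes kept, with the replicate block and with limma, 4 with the GC and length offset, and 1 to 3 with a library left out. The count lower was 2 instead of 0 with upper quartile scaling and with library totals alone, and 0 to 1 with a library left out. Their median was -0.095 with library totals alone, 0.11 with the offset, and -0.044 to 0.065 with a library left out. DESeq2 called 1318 genes lower over the whole table, against 2316. The cause of these differences was not tested. Replicate numbers showed no clear pairing: deviations from the group means of same-numbered libraries correlated at 0.08, 0.10 and -0.07 across genes. Libraries with different numbers correlated at -0.16 to 0.08. With 3 libraries per group this cannot settle whether a culture or day was shared. With the replicate block 4986 genes were called, against 4916, and the cytosolic counts were 14 higher and 2 lower. Depth limits the mitochondrial genes most, where single libraries hold as few as 53 reads.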
